A study of Mus musculus with 4 samples.

Results

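The spots described here are those of the mouse olfactory bulb in which transcripts of 6 phagocyte genes took the largest share of the captured RNA. The genes were Lyz2, Gpnmb, Spp1, Itgax, Lgals3 and Mmp12. A spot's score was the summed unique molecular identifiers (UMIs, each a captured molecule) of the 6 genes divided by all UMIs of the spot. Among spots with at least 500 UMIs, the top 10% by score were taken in each of libraries 3 and 4. This gave 129 of 1296 spots in library 3 and 94 of 943 in library 4, together 223 of the 4713 spots of the series. They are called phagocyte-marker spots below and are set against the 1167 and 849 other spots of the same libraries. The working label calls them lesion spots, but no image or spot position was used, so whether they lie in a lesion was not tested.

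The study placed coronal sections of olfactory bulb, 10 micrometres thick, on Visium slides, whose barcoded spots each capture polyadenylated RNA from several cells or parts of cells lying above them. Per the labels, 1 control mouse and 1 mutant mouse, taken at 5 months of age, each gave 2 capture areas. The control areas held 2 sections and 1 section, and the mutant areas 2 sections each. The mutant carried a transgenic soluble VEGFR1, which binds VEGF and keeps it from its receptors, under a tetracycline-regulated Camk2a-tTA driver, and VEGF was blocked at E13.5. The labels give the control only as control, and do not say whether it carried either transgene. Camk2a-tTA drives expression in neurons of the forebrain. The pooled matrix marks its 4 libraries by a number at the end of each barcode, and these numbers match no sample label. No library is therefore assigned to a mouse, no control is compared with a mutant, and a library is 1 sample. No p-value is given anywhere, and all intervals are 95% intervals for counting error only.

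Phagocytes of the brain are mainly microglia, which live in the tissue itself, with macrophages at its borders and monocytes that enter from blood. When they take up dying cells or myelin debris they switch on genes for lysosomal digestion, lipid export and the receptor pair Trem2 and Tyrobp, and lower the genes of resting microglia. In the bulb they share the outer layers with olfactory ensheathing glia, which wrap the axons of sensory neurons and can themselves take up debris, with astrocytes and with the fibroblasts of the leptomeninges.

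The phagocyte-marker spots were of similar depth to the others. The median was 9306 UMIs and 4020 genes per spot against 8963 and 3971 in library 3, and 9899.5 and 4043 against 9829 and 4145 in library 4. Mitochondrial transcripts made up 6.27% of UMIs against 7.46% in library 3 and 6.92% against 7.51% in library 4. Ribosomal protein transcripts made up 8.70% against 6.14% and 8.24% against 6.09%. Libraries 3 and 4 shared 182 barcodes among kept spots. Of these, 17 were chosen in library 3 and 42 in library 4, and no barcode was chosen in both. So few were chosen in either library that the absence of a shared choice is only a description.

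The 6 genes chose the spots, so their levels are a description. The phagocyte-marker spots held 9.85% of all UMIs of library 3 and 60.7% of the UMIs of the 6 genes. In library 4 they held 9.94% and 65.7%. The median score was 43.9 UMIs per 10000 against 3.10 in the other spots of library 3, and 34.3 against 1.98 in library 4, with highest spots at 396 and 202. There was no gap at the threshold. The last spot inside stood at 26.8 and the first outside at 26.7 per 10000 in library 3, and at 20.5 and 20.3 in library 4. In libraries 1 and 2, none of 1662 and none of 715 spots reached either threshold, which allows a share of up to 0.181% and 0.420% (3 spots of the total), and their highest spots stood at 18.5 and 14.0 per 10000.

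Lyz2, which codes for the lysozyme of macrophages, gave 45.8% and 51.0% of the score UMIs in the phagocyte-marker spots of libraries 3 and 4. Its level was 3096 counts per 1000000 UMIs (CPM) against 201 in the other spots of library 3, and 2991 against 160 in library 4, beside 26.2 and 27.9 over all spots of libraries 1 and 2. Lyz2 was the gene with the most UMIs of the 6 in 96 of 129 and 81 of 94 spots. Reads of Lyz2 can resemble those of its near copy Lyz1, so its level is uncertain to that extent.

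Spp1, which codes for the secreted protein osteopontin, was next with 1893 CPM against 160 in library 3 and 1512 against 102 in library 4. It led in 28 and 10 spots. Its level in libraries 1 and 2, 143 and 133 CPM, was near that of the other spots of libraries 3 and 4. Gpnmb, a membrane glycoprotein of lysosome-laden phagocytes, stood at 964 against 68.8 and 724 against 47.9 CPM, and Lgals3, the lectin galectin-3, at 608 against 38.3 and 435 against 23.1 CPM.

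The rarest of the 6 genes, Itgax and Mmp12, also had the widest ratios. Itgax, the integrin CD11c, stood at 107 against 5.84 CPM in library 3 and 76.0 against 3.49 in library 4. Mmp12, the elastase of macrophages, stood at 93.1 against 2.66 and 129 against 2.45 CPM. A UMI of Mmp12 was seen in 42.6% and 38.3% of the phagocyte-marker spots and in 2.31% and 2.24% of the others. It was seen in none of the spots of libraries 1 and 2. In spots thinned to 2000 UMIs these shares were 14.8% and 10.8% against 0.799% and 0.361%.

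**Figure D1:**
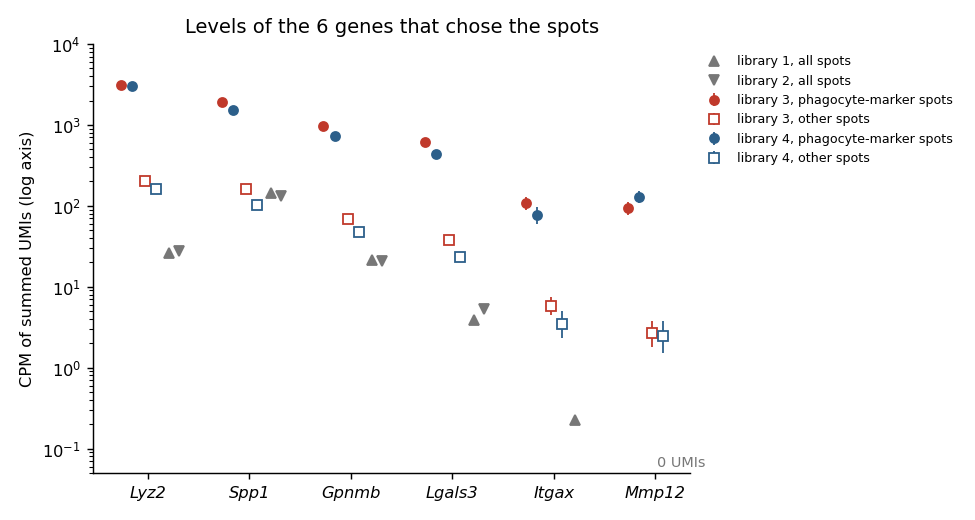
Level of each of the 6 genes that chose the spots, in CPM of summed UMIs on a log axis, with 95% Poisson intervals, in phagocyte-marker spots (filled circles), other spots of libraries 3 and 4 (open squares) and all spots of libraries 1 and 2 (triangles). Filled points stand above all others for each gene; Mmp12 has 0 UMIs in libraries 1 and 2 and Itgax has 0 in library 2, which a log axis cannot show.

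Spots were chosen by the sum of the 6 genes, so how many of them a spot held is also a description. All 6 had a UMI in 36 of 129 spots of library 3 and 16 of 94 of library 4, and at least 4 had one in 117 and 78. Among the other spots all 6 had a UMI in 2 of 1167 and 0 of 849. When each gene was left out of the score and its own level was read in spots chosen by the other 5, it was higher there for each of the 6. The ratio to the remaining spots was lowest for Spp1, at 9.79 (9.21 to 10.4) in library 3 and 13.8 (12.7 to 15) in library 4. It was highest for Mmp12, at 31.1 (20.9 to 47.3) and 46.6 (29.6 to 76.3). Leaving out Lyz2 changed the choice of spots the most, yet 83.7% and 83.0% of the spots were the same.

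The promoters of several of these genes can be read beside the values. Shown are the 250 bases before the transcription start of Mmp12, the gene with the widest ratio, of Spp1, and of Cd68 and Trem2, phagocyte genes that the score did not use. Sequences are from RefSeq on GRCm38.p6, written in the direction of transcription. Capitals mark GAGGAAG, a core of the site bound by the myeloid factor PU.1, and TGANTCA, on either strand. TGANTCA, where N is any base, is a loose pattern that includes the site bound by AP-1 factors. It reads the same on both strands. RefSeq gives Mmp12 more than 1 start in this table, and 1 of its windows is printed. The windows are Mmp12 at chr9:7347124-7347373 (plus strand), Spp1 at chr5:104434861-104435110 (plus), Cd68 at chr11:69666171-69666420 (minus) and Trem2 at chr17:48346151-48346400 (plus).
Mmp12: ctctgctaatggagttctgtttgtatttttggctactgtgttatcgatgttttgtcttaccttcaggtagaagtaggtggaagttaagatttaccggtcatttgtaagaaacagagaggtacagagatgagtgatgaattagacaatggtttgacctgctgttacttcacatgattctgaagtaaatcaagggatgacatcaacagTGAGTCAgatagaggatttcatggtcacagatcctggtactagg
Spp1: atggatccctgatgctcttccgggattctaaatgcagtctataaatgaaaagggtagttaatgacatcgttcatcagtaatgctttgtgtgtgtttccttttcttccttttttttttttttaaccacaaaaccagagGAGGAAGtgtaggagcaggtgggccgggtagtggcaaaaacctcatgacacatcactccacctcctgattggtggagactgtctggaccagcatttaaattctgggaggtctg
Cd68: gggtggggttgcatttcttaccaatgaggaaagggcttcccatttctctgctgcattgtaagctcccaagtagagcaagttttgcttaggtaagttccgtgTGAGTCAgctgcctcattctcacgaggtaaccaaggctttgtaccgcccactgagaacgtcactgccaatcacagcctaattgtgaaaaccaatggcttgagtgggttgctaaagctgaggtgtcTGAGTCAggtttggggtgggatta
Trem2: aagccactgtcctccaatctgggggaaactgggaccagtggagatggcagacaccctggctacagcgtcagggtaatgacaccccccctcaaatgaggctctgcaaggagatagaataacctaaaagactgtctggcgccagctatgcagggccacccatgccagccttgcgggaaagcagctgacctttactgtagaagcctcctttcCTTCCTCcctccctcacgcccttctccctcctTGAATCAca
The printed Mmp12 window has a TGANTCA match that begins 44 bases before the start, and the window not printed, at chr9:7344147-7344396, has GAGGAAG beginning 87 bases before its start. Cd68 has TGANTCA matches beginning 149 and 24 bases before the start, and Trem2 has one beginning 9 bases before it. The middle base is A in the Trem2 match and G in those of Mmp12 and Cd68. GAGGAAG begins 113 bases before the start of Spp1 and 41 before that of Trem2. Of 32851 promoter windows in the table, 10.6% held GAGGAAG and 6.75% TGANTCA. Each motif occurred in a window of 2 of the 6 score genes. Every gene shown holds a match, but these genes were not picked by a set rule, so they do not give a share among phagocyte genes. A match shows only that these letters are present.

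Across the transcriptome, 610 of 10412 genes with at least 100 UMIs in each library were more than 2-fold higher in the phagocyte-marker spots in both libraries, or 5.86%, and 742, or 7.13%, were more than 2-fold lower. The 610 include the 6 genes that chose the spots. No gene passed 2-fold in opposite directions. The median log2 ratio of all these genes was -0.19 in library 3 and -0.17 in library 4, slightly below 0. With ratios centred on that median, 781 genes were higher and 491 lower, and the higher share of the called genes went from 45.1% to 61.4%. Counts for gene lists below are to be read against 5.86% higher and 7.13% lower.

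**Figure D2:**
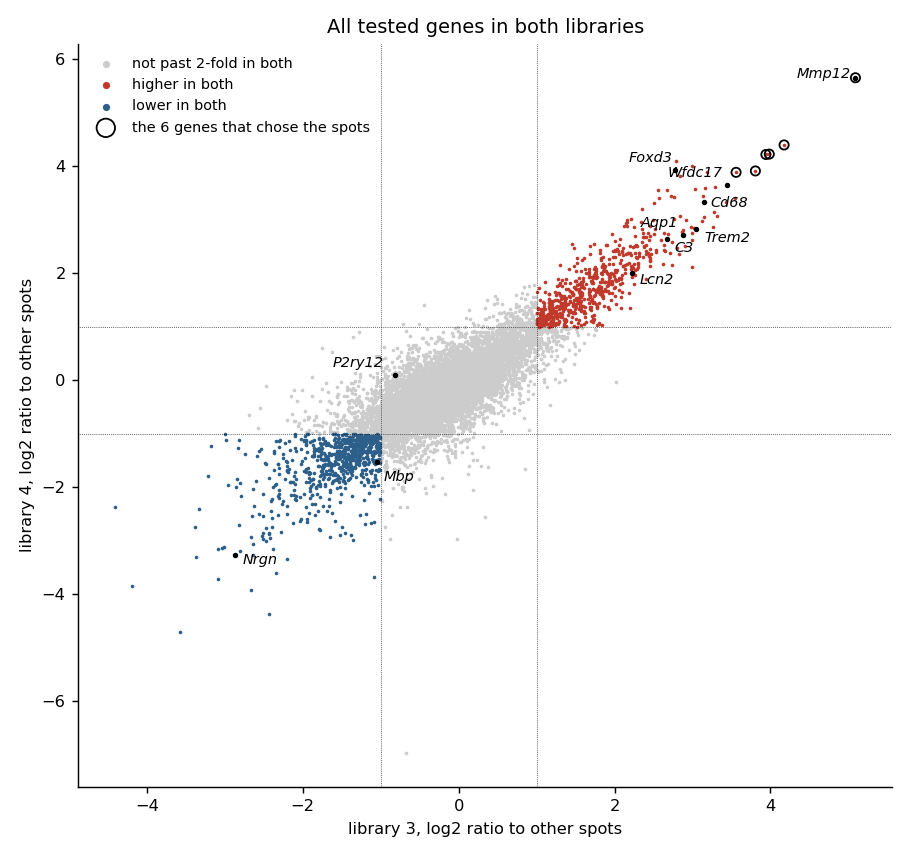
Log2 ratio of the phagocyte-marker spots to the other spots for each of the 10412 genes, library 3 on the horizontal axis and library 4 on the vertical axis; dotted lines mark 2-fold. The 610 genes higher in both libraries are red, the 742 lower are blue, the 6 genes that chose the spots are ringed, and named genes lie near the diagonal.

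Beyond the 6 score genes, the 20 genes with the highest ratio in both libraries were, in order, Wfdc17, Spidr, Col3a1, Cd68, Mpeg1, Fcgr2b, Angptl4, Clca3a1, Srgn, Fbln2, Trem2, Col5a2, Foxd3, Fcer1g, Plekha4, Aqp1, S1pr3, Col18a1, C3 and A2m. Each was at least 6.21-fold higher in both. They mixed genes of phagocytes with genes of extracellular matrix and glia. Wfdc17, a small secreted protein of activated macrophages, stood at 205 CPM against 18.9 in library 3 and 207 against 16.3 in library 4, ratios of 10.9 (9.02 to 13.1) and 12.7 (10.2 to 15.9). Mpeg1, the pore-forming protein perforin-2 of macrophages, stood at 299 against 30.7 and 200 against 22.5 CPM. Foxd3, a neural crest transcription factor found in ensheathing glia, stood at 114 against 16.5 and 120 against 7.80 CPM.

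Against all other spots, genes of the damage-associated phagocyte program were higher almost as a whole. Of 20 listed genes, 19 had enough UMIs and 16 passed 2-fold in both libraries, with none lower. Their median log2 ratio was 2.03 and 1.97. Trem2, the receptor for lipids and debris, stood at 165 CPM against 19.9 in library 3 and 127 against 17.7 in library 4. Its signalling partner Tyrobp stood at 598 against 95.3 and 505 against 94.6 CPM. Cd68, a lysosomal membrane protein used to mark phagocytes, had ratios of 8.92 (7.52 to 10.6) and 10.2 (8.03 to 13). Lpl, the lipoprotein lipase, had 49.4 against 6.81 and 82.3 against 5.71 CPM, and the chemokine Ccl6 had 75.3 against 10.8 and 115 against 6.64. The 3 genes that did not pass were Gpx3, Ank and Fth1, and Cst7 had too few UMIs.

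Apoe, the main lipid carrier of brain, was by far the most abundant gene of this list. It stood at 18039 CPM against 4405 in library 3 and 17246 against 4139 in library 4, ratios of 4.10 (4.03 to 4.16) and 4.17 (4.09 to 4.24).

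Lysosomal and lipid genes were higher by smaller factors. Of 18 lysosomal genes measured, 13 passed 2-fold in both libraries, and their median log2 ratio was 1.45 and 1.27. The cathepsin Ctss stood at 729 CPM against 104 and 495 against 89.1, and Ctsz, Ctsh and Ctsc also passed, as did Npc2, which carries cholesterol out of the lysosome, and progranulin, Grn. Psap, the saposin precursor, is abundant in many cells and had log2 ratios of 0.57 and 0.48, and the channel Mcoln1 had -0.71 and -0.85. Of 9 lipid genes, 5 passed, with a median of 1.72 and 1.14. The lipid droplet coat Plin2 had 92.3 against 19.2 and 91.8 against 14.1 CPM, and the cholesterol exporter Abca1 had 454 against 113 and 381 against 91.1. Abca1, the lipase Lipa, Apoc1 and Pltp passed, whereas the exporter Abcg1 had 0.63 and 0.65.

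Genes of resting microglia differed less. Of the microglia list, 2 of 10 measured genes passed 2-fold in both libraries, with a median log2 ratio of 0.93 and 0.64. Among them was the receptor Fcrls, at 80.2 CPM against 21.5 in library 3 and 59.1 against 18.4 in library 4. Cx3cr1, the fractalkine receptor, stood at 37.3 against 15.8 and 33.8 against 19.9 CPM. P2ry12, the ADP receptor of ramified microglia, stood at 11.3 against 19.97 CPM in library 3, a ratio of 0.567 (0.305 to 0.971), and at 21.1 against 19.7 in library 4. It rests on 14 and 20 UMIs. The microglial transcription factor Sall1 had log2 ratios of -0.51 and -0.29. The list as a whole was higher, with a ratio of summed levels of 2.16 (2.02 to 2.31) and 1.74 (1.59 to 1.89). In 113 of 129 and 77 of 94 phagocyte-marker spots its sum was above the median of the other spots. In a spot, fewer cells of a type and less RNA per cell cannot be told apart.

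Receptors for antibodies and their signalling chain were higher. Of 16 listed phagocytic and Fc receptors, 5 had enough UMIs and 4 passed 2-fold in both libraries, with a median log2 ratio of 2.29 and 2.52. Fcgr2b, the inhibitory Fc receptor, stood at 234 CPM against 26.5 and 200 against 18.3, and Fcer1g, the signalling chain of Fc receptors, at 386 against 53.0 and 349 against 51.1. Fcgr3 and Stab1 also passed. Mertk, which binds dying cells, did not, at 11.3 against 11.2 and 16.9 against 15.8 CPM.

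Some genes listed for monocytes and border macrophages were higher too, but few of those listed could be measured. Of 16 listed genes of monocytes and recruited macrophages, 5 were measured and Fn1, S100a4, Ifitm3 and Adgre1 passed. Fibronectin (Fn1) and Ifitm3 are also made by fibroblasts and endothelium. Ccr2, the receptor that brings monocytes into tissue, had a UMI in 8 of 129 and 5 of 94 phagocyte-marker spots, or 6.20% and 5.32%, against 2.91% and 1.65% of the others. Of the border macrophage genes, Pf4 and F13a1 passed, and Cbr2 and Maf did not. Cd3e of T cells had no UMI in any phagocyte-marker spot, which allows up to 2.43 CPM in library 3 and 3.16 in library 4. The 11 T and NK cell genes summed to 12.1 against 6.46 CPM in library 3 and 8.44 against 6.76 in library 4, with 5 and 6 of them at 0. The 8 B and plasma cell genes summed to 55.9 against 35.1 CPM in library 3, a ratio of 1.59 (1.21 to 2.06), and to 22.2 against 21.5 in library 4, a ratio of 1.03 (0.622 to 1.62).

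Neutrophil genes did not pass in both libraries. S100a8, a calcium-binding protein abundant in neutrophils, stood at 103 CPM against 36.6 in library 3 and 36.9 against 26.3 in library 4. S100a9 stood at 86.7 against 38.8 and 45.4 against 27.3. Of the proliferation list, Ccnb1 was lower in both libraries, on 12 and 9 UMIs, and Pcna had log2 ratios of 0.51 and 0.33. The other 6 genes of that list had too few UMIs.

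The complement list was higher throughout. All 7 of its measured genes passed 2-fold in both libraries, with a median log2 ratio of 2.30 and 2.20. The 3 chains of C1q, which starts the classical pathway, were close to each other, with C1qb at 821 CPM against 149 in library 3 and 668 against 140 in library 4. C3, on which all pathways meet, stood at 509 against 79.7 and 363 against 57.7 CPM. It had 0.225 and 0.574 CPM in libraries 1 and 2, which is 3 UMIs in each. C4b had the smallest log2 ratios, 1.25 and 1.07, and the inhibitor Serping1 had 2.42 and 2.75.

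Antigen presentation and interferon genes were higher too. Of 5 measured MHC class II genes, H2-Aa, H2-Ab1, H2-Eb1 and the invariant chain Cd74 passed in both libraries, and H2-DMa, which loads peptides, did not. Cd74 stood at 418 CPM against 85.3 and 400 against 81.9, a ratio of 4.90 and 4.88. Of 6 MHC class I genes 5 passed, and of 7 interferon-stimulated genes 6 passed, among them Bst2, Ifitm2 and Cxcl10. Of 18 chemokines and cytokines, 4 had enough UMIs, Ccl5, Ccl8, Ccl12 and Cxcl16, and all 4 passed, with a median of 1.92 and 2.39. The iron storage subunit Ftl1 stood at 3012 against 908 and 2662 against 816 CPM, and the other subunit Fth1, on the damage-associated list, had log2 ratios of 0.86 and 0.66.

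**Figure D3:**
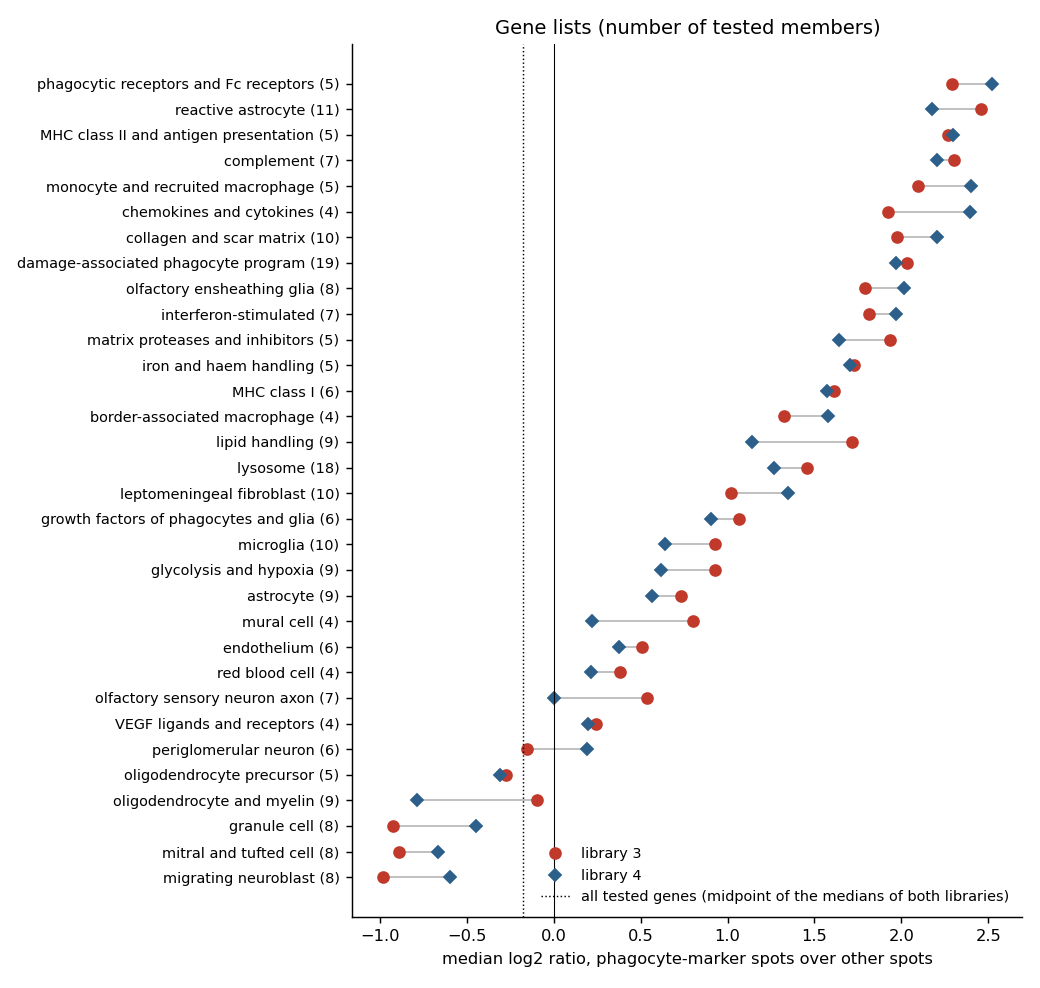
Median log2 ratio of the phagocyte-marker spots to the other spots for each gene list with at least 3 measured members (number in brackets), in library 3 (circles) and library 4 (diamonds). Lists of immune cells, reactive glia and matrix lie to the right, the microglia list in the middle at 0.93 and 0.64, and the mitral and tufted cell, granule cell and neuroblast lists at the left, with the myelin list there in library 4 only, at -0.79 against -0.10 in library 3.

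Markers of other cells moved with the phagocyte genes, and their part in these results was not tested. Reactive astrocytes, which enlarge and change their gene expression near damage, were represented by every gene measured. All 11 measured genes passed 2-fold in both libraries, and the list's median log2 ratio was 2.45 and 2.17. Its summed level ranged from 1277 to 15519 CPM over the phagocyte-marker spots of library 3 and from 1024 to 11037 in library 4, with medians of 7041 and 4960 against 1007 and 784 in the other spots. Serpina3n, a protease inhibitor, stood at 2146 CPM against 391 and 1580 against 324. Lcn2, the iron-carrier binding protein lipocalin-2, stood at 1746 against 375 and 1142 against 286. Gfap, their filament protein, had log2 ratios of 1.46 and 1.27. Genes of resting astrocytes differed less, with a median log2 ratio of 0.73 and 0.56. Of 9 measured, 1 passed, Agt. Slc1a2, the main glutamate transporter, was the lowest of the list, at -0.46 and -0.62.

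Olfactory ensheathing glia were strongly represented. Of 8 measured genes 6 passed in both libraries, with a median log2 ratio of 1.79 and 2.01. Apod, a lipid carrier that these glia make in quantity, stood at 4893 CPM against 1163 in library 3 and 5697 against 912 in library 4. The water channel Aqp1 stood at 656 against 88.9 and 389 against 59.3, and Sox10, the factor of neural crest glia, at 210 against 42.5 and 190 against 43.8. Summed over the list, 127 of 129 and 94 of 94 spots were above the median of the other spots. The 7 measured sensory axon genes were mixed, with a median log2 ratio of 0.53 and 0.00. S100a5 was higher in both libraries, at 463 against 122 and 851 against 224 CPM, and Gnal and Calm2 were more than 2-fold lower in both. The other 4 did not pass, among them Omp with log2 ratios of 1.12 and 0.66.

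The matrix genes split. Of 10 collagen and scar genes, 9 passed in both libraries, led by Col3a1, a fibrillar collagen, at 211 CPM against 23.5 and 199 against 16.3, ratios of 8.94 (7.51 to 10.7) and 12.2 (9.78 to 15.3). Of 10 leptomeningeal fibroblast genes, 5 passed: Dcn, Lum, Col1a1, Col1a2 and Aebp1. Dcn, the proteoglycan decorin, stood at 415 against 92.8 and 597 against 76.8 CPM. Ptgds, a prostaglandin synthase that leptomeningeal cells make in quantity, was nearly level, at 9040 against 7466 and 5794 against 5555, and Fmod had log2 ratios of 0.27 and -0.41. Of the proteases and inhibitors, Mmp2, Mmp19, Timp1 and Timp3 passed. Mmp19 stood at 63.2 against 8.32 and 61.2 against 7.57 CPM.

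Vessel genes changed less. Of 6 endothelial genes, the tight junction gene Cldn5 passed, at 258 CPM against 72.6 and 262 against 73.5, but Flt1, which codes for VEGFR1, had log2 ratios of 0.61 and 0.57, and Ly6c1 had 0.41 and 0.39. None of 4 mural cell genes and none of 4 globin genes passed. Vegfa, the ligand that soluble VEGFR1 binds, stood at 413 against 164 and 364 against 140 CPM, a ratio of 2.52 (2.28 to 2.79) and 2.59 (2.29 to 2.93). Counts of Flt1 need not tell the transgene from the native gene. With Vegfa, the hypoxia-responsive genes Car9 and Adm passed, and the glycolytic genes Ldha, Pgk1 and Eno1 had log2 ratios of at most 0.48.

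Among the genes that were lower were several of neurons. Most members of the neuronal lists did not pass 2-fold in both libraries, but several of these lists were lower as a whole. The 15 genes with the lowest ratio in both libraries included Cpne9, Prdm8, Mpped1, Hpca, Mal2, Nrgn, Lamp5, Itpka, Slc30a3, Neurod6, Enc1, Rph3a, Calb1 and Sprn. Nrgn, a calmodulin-binding protein of dendrites, stood at 177 CPM against 1292 in library 3 and 140 against 1360 in library 4. Its ratios were 0.137 (0.119 to 0.156) and 0.103 (0.086 to 0.122). Single phagocyte-marker spots held at most 9 and 7 UMIs of Nrgn. Single other spots held up to 159 and 155, and those of libraries 1 and 2 up to 10 and 9. After thinning to equal depth, 30.5% and 20.4% of the phagocyte-marker spots held a UMI of Nrgn. The others gave 58.1% and 54.0%, and all spots of libraries 1 and 2 gave 18.8% and 27.2%. Whether neurons were lost, and which tissue the other spots covered, was not tested. Of 8 mitral and tufted cell genes 3 were more than 2-fold lower, Slc17a7, Uchl1 and Nrn1, whereas Eomes, a factor of these cells, had log2 ratios of 0.12 and 0.35. The median log2 ratio of that list was -0.89 and -0.67, and its summed level had a ratio of 0.488 and 0.498. Of 8 granule cell genes, only Pcp4 was more than 2-fold lower in both libraries. The granule cell list had a median log2 ratio of -0.92 and -0.44 and a summed ratio of 0.485 and 0.621. Only 13 of 129 and 13 of 94 phagocyte-marker spots were above the median of the other spots for this list. Of 6 measured periglomerular genes Trh was higher and Calb1 lower, and the median log2 ratio was -0.15 and 0.19. Of 8 neuroblast genes 1, Stmn2, was more than 2-fold lower in both libraries, and the list had a median log2 ratio of -0.98 and -0.60. Its summed ratio was 0.478 and 0.491.

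Myelin genes were mixed. Of 9 measured, Mbp, Mobp and Mog were lower in both libraries and 6 did not pass, and the median log2 ratio was -0.10 and -0.79. Mbp stood at 414 against 853 and 357 against 1026 CPM, and Mal had log2 ratios of 0.92 and 0.80. The summed level of the list was lower, with a ratio of 0.948 (0.907 to 0.991) in library 3 and 0.717 (0.680 to 0.756) in library 4. Even so, 85 of 129 and 57 of 94 phagocyte-marker spots were above the median of the other spots.

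The levels can be followed along the score by cutting all kept spots of a library into 10 bins of near-equal size, from bin 1, the lowest, to bin 10, the phagocyte-marker spots. Bins 1 and 2 held only spots with no score UMI and were shallower, with medians of 4741 to 6842 UMIs. The summed damage-associated list stood at 7630 CPM in bin 1, 15864 in bin 8, 20545 in bin 9 and 34538 in bin 10 of library 3. In library 4 the same bins gave 7738, 13728, 20506 and 31446. Much of this sum is Apoe. Cd68 had 42.3, 79.1 and 219 CPM in bins 8, 9 and 10 of library 3 and 20.8, 43.8 and 159 in library 4, so its widest step was the last.

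Ensheathing glia and reactive astrocyte genes were already high just below the threshold. The ensheathing glia list stood at 6767 CPM in bin 9 and 8446 in bin 10 of library 3, and at 5811 and 9282 in library 4. Lcn2 had 1137 and 1746 CPM in these bins of library 3, but 1292 and 1142 in library 4. The leptomeningeal list was highest below the phagocyte-marker spots. It stood at 24273 CPM in bin 9 and 11089 in bin 10 of library 3, and at 12539 and 7798 in library 4, where bin 7 with 12835 was highest. Ptgds makes up most of that sum. Globin genes likewise stood at 4016 and then 1881 CPM in library 3, and at 2510 and then 1493 in library 4. Mitral and tufted cell genes were highest in the middle, with 4009 CPM in bin 6 of library 3 and 3611 in bin 7 of library 4, against 1472 and 1468 in bin 10.

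**Figure D4:**
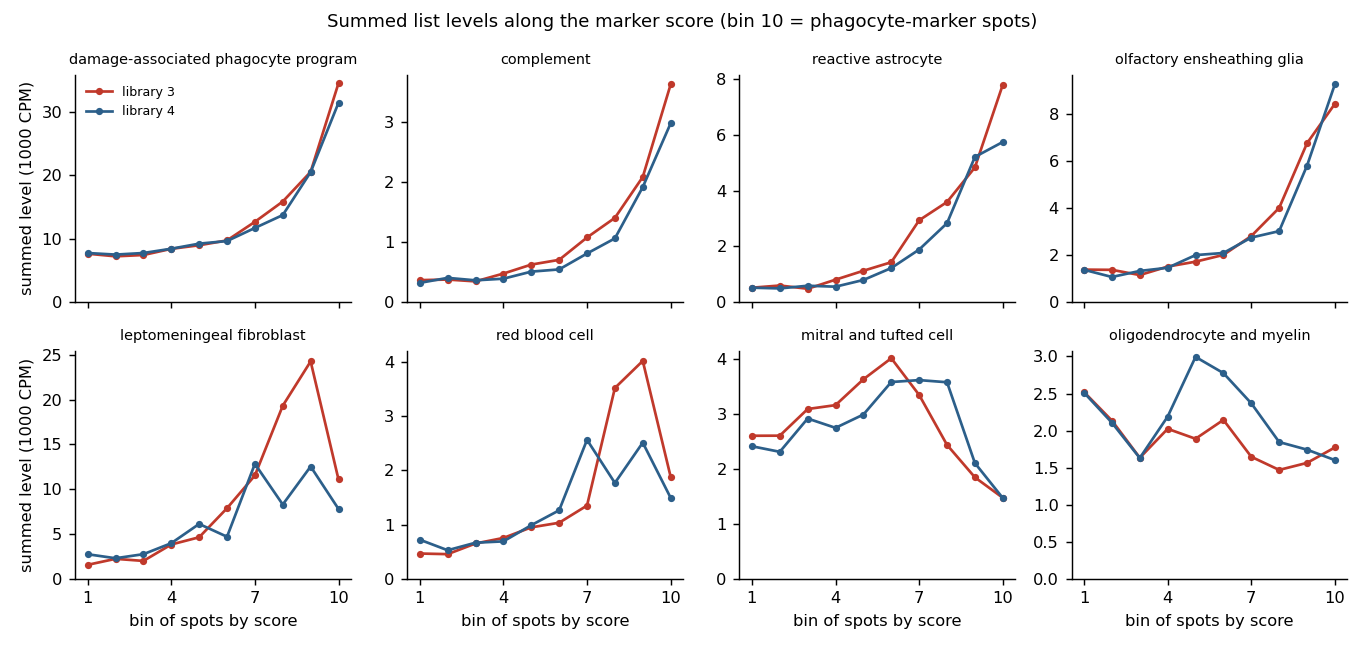
Summed level of 8 gene lists, in units of 1000 CPM, in each bin of the kept spots by score, for library 3 (red) and library 4 (blue). The damage-associated and ensheathing glia lists are highest in bin 10, whereas the leptomeningeal list stands at 24273 CPM in bin 9 and 11089 in bin 10 of library 3, and the mitral and tufted cell list is highest in bin 6 or 7.

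Among the phagocyte-marker spots themselves, some genes were highest in the spots of highest score and others were not. In library 3 the damage-associated list stood at 26304, 31798 and 43193 CPM in the lowest, middle and highest of 3 equal parts by score, and in library 4 at 23961, 28783 and 38239. In the same order, Trem2 stood at 79.7, 146 and 248 CPM in library 3 and 70.9, 60.5 and 212 in library 4. Lpl stood at 30.2, 25.1 and 84.7 CPM, and 27.6, 53.8 and 139. Col3a1 stood at 124, 171 and 311 CPM, and 118, 135 and 300.1. Each was highest in the highest part, but Lpl in library 3 and Trem2 in library 4 were lower in the middle than in the lowest part. The ensheathing glia list was nearly flat, at 8699, 8718 and 8023 CPM in library 3 and 8617, 9444 and 9587 in library 4. Spidr, which codes for a DNA repair scaffold and came next to Wfdc17 in rank, was also flat, at 198, 236 and 222 CPM in library 3 and 165, 215 and 197 in library 4. Ptgds was lower in the highest part, at 7341 against 12784 CPM in library 3 and 2996 against 7444 in library 4. The parts differed in depth and mitochondrial share, with medians of 11161 UMIs in the highest and 8920 in the lowest part of library 3 and 11933 and 6655 in library 4, and mitochondrial shares of 4.84% and 8.08%, and 5.53% and 8.37%. The part of these in the gradient was not tested.

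Spot by spot, of the 11 lists set against the score, the damage-associated list had the highest correlation with it in both libraries. Spearman's rho over spots thinned to 2000 UMIs was 0.71 in 128 spots of library 3 and 0.48 in 93 of library 4. The damage-associated list gave a rho of 0.34 and 0.58 with complement and 0.34 and 0.47 with reactive astrocyte genes. Reactive astrocyte and leptomeningeal genes had a rho of -0.15 and -0.47. The spots of a library share a capture area, which per the labels holds 1 or 2 sections. They also share a total that lists divide between them, and neighbouring spots are not independent, so these values are descriptions.

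**Figure D5:**
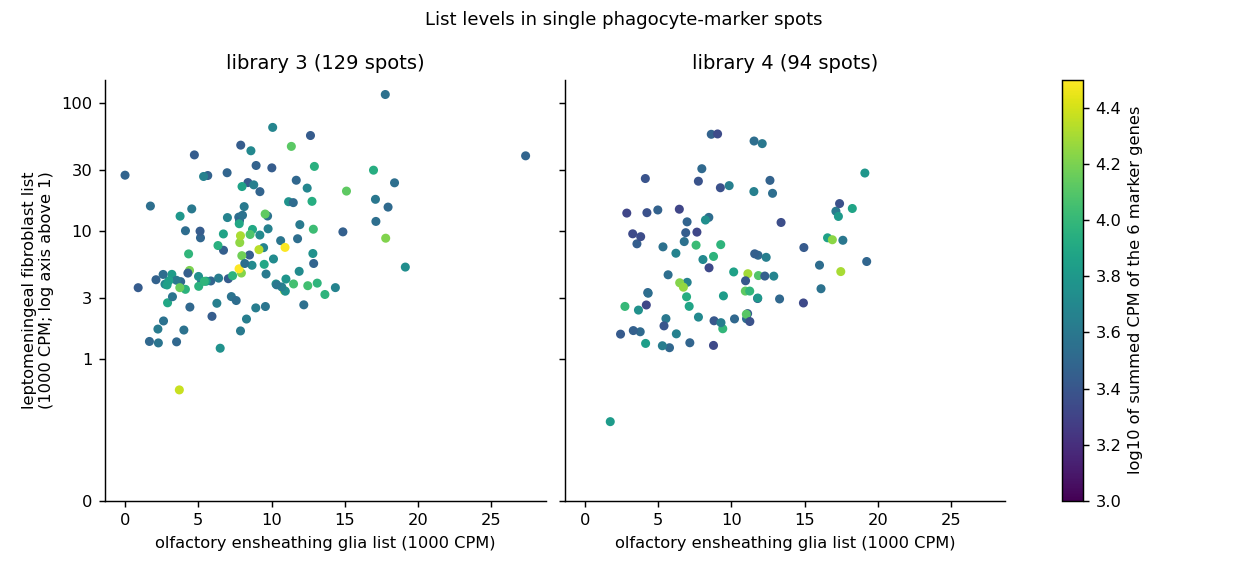
Summed level of the ensheathing glia list (horizontal) and the leptomeningeal fibroblast list (vertical, log axis above 1) in each of the 129 and 94 phagocyte-marker spots, in units of 1000 CPM, coloured by the log10 of the summed CPM of the 6 marker genes. Leptomeningeal levels range from 780 to 115883 CPM in library 3 and from 557 to 56988 in library 4, and the spots with the highest marker sums are not those with the highest leptomeningeal sums.

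To place the phagocyte-marker spots among other kinds, the top 10% of spots were also taken by the summed share of the reactive astrocyte, ensheathing glia, microglia or leptomeningeal list, none of which holds a score gene. Reactive astrocyte spots made up 55.8% of the phagocyte-marker spots in library 3 (46.8 to 64.5) and 43.6% in library 4 (33.4 to 54.2). Ensheathing glia spots made up 48.1% and 54.3%, microglia spots 37.2% and 23.4%, and leptomeningeal spots 13.2% and 11.7%. By the rule each set holds 10% of its library's spots. Since sets compared have the same size, each figure is also the share of the other set. At least 2 of these kinds applied to 51.9% and 46.8% of the phagocyte-marker spots, and none to 12.4% and 22.3%.

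Against the reactive astrocyte spots that were not phagocyte-marker spots, 51 of 2924 genes with at least 100 UMIs over the 2 sets together in each library were more than 2-fold higher in both libraries, or 1.74%, and 0 were lower. A gene could reach that minimum through the phagocyte-marker spots alone. Here and in each comparison below, the genes counted as higher include 5 score genes. These chose the spots, so their part of the count is a description. The damage-associated list had 3 of 15 measured genes higher in both libraries, with a median log2 ratio of 0.76 and 0.48. Lysosomal genes had 1 of 16, lipid genes 0 of 6, MHC class II genes 0 of 4 and monocyte genes 0 of 2. Higher genes included Col3a1, with a ratio of 4.61 (3.11 to 7.07) and 7.0 (4.20 to 12.5), Dcn, with 4.47 and 4.66, Wfdc17, with 4.83 and 4.30, and Trem2, with 4.60 and 3.09. Lcn2 and Gfap, which helped to choose the astrocyte spots, stood at ratios of 0.55 and 0.46, and 0.64 and 0.53. Car9, which did not, stood at 0.49 and 0.54.

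Against the ensheathing glia spots outside the set, 24 of 2397 genes were higher, or 1%, and 7 lower, or 0.292%, the fewest of these comparisons in the higher direction. Besides the 5 score genes, which chose the spots, the higher genes included 3 complement genes. The damage-associated list had 7 of 15 measured genes higher, with a median log2 ratio of 0.72 and 1.10. Lysosomal genes had 2 of 16, MHC class II genes 0 of 3, interferon-stimulated genes 0 of 3 and monocyte genes 0 of 2. Cd68 stood at a ratio of 4.15 (2.89 to 6.16) and 4.64 (2.52 to 9.49), Mpeg1 at 3.89 and 3.78, Ctss at 3.12 and 3.05 and Trem2 at 3.82 and 2.70. Mobp, Mbp and Ptgds were lower, with Ptgds at 0.25 and 0.34.

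Against microglia spots, 138 of 2930 genes were higher, or 4.71%, and 51 lower, or 1.74%. The damage-associated list had 9 of 15 measured genes higher. Among the higher were Col3a1, at a ratio of 6.42 and 7.92, Spidr, at 8.36 and 6.35, and Cd68, at 4.61 and 5.90. Nrgn and Mobp stood at ratios of 0.18 and 0.18, and 0.18 and 0.21. Against leptomeningeal spots, 96 of 2943 genes were higher, or 3.26%, and 52 lower, or 1.77%. Here too the damage-associated list had 9 of 15 measured genes higher. C3 was higher there, at a ratio of 7.57 and 6.28, as was Car9, at 5.55 and 14.2. Ptgds, a gene of the list that chose those spots, stood at 0.16 and 0.13, and the globin gene Hba-a1, which did not choose them, at 0.41 and 0.25.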

How the data were processed

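Spatial RNA was measured in 4 Visium libraries. The deposited values are whole-number UMI counts per gene and spot in 1 pooled matrix, which the authors produced using version 1.3.1 of Space Ranger, per the file headers. The submitters' processing notes name GRCm39, which could not be checked in the files. No annotation or read filter is named in the sources used here. Of 32285 genes, 32158 were found in the reference name table. Promoters came from RefSeq (GRCm38.p6), and no coordinate was converted between builds.

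Spots were assigned to libraries by barcode suffix, and suffixes match no sample label. Spots with at least 500 UMIs were kept. Over summed UMIs, levels are CPM with exact Poisson intervals, ratios have exact conditional binomial intervals, shares of spots exact (Clopper-Pearson) binomial intervals, and log2 ratios a prior count of 0.5. A gene was called when past 2-fold the same way in libraries 3 and 4, with at least 100 UMIs in each. A sum of 3 UMIs in the phagocyte-marker spots is 2.43 CPM in library 3 and 3.16 in library 4. Total UMIs in these spots were 1234724 and 947932. No test was run, since each library is 1 sample; the calculations were tested on simulated data.

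The spots and the 39 gene lists (394 genes, of which 241 reached the minimum) were chosen with earlier results of these data known. Named genes are list members, the 20 highest and the 15 lowest by the less extreme library among genes with at least 500 UMIs, without mitochondrial, ribosomal protein and unnamed gene models; the values of some are not reported here. Alternatives covered the share of spots, UMI and gene minimums, score genes, spot weights, scaling, comparison spots, prior count and fold. Calculations used Python 3.11.15 with numpy 2.4.6, scipy 1.17.1 and pandas 2.3.3, and figures matplotlib 3.10.9.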

Additional observations from a re-analysis of the deposited data

How the results depend on the processing

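No paired analysis was possible because the columns carry no sample label and no test was run. No called value changed direction under any alternative. Against the 610 genes higher and 742 lower, centring on the median gave 491 lower. A minimum of 20 UMIs per gene gave 1115 higher, and no minimum gave 1622 higher and 2780 lower, since more genes entered. Against the lowest-score spots only, 948 were higher. Library 3 alone gave 1184 lower. A 1.5-fold threshold gave 1104 and 1767, and a 3-fold threshold 278 and 172. Overlaps followed the size of the sets. With the top 5% and top 20% of spots, reactive astrocyte spots made up 35.9% and 68.0% of the phagocyte-marker spots in library 3 and 25.5% and 67.6% in library 4. Leptomeningeal spots made up 3.13% and 45.2%, and 2.13% and 37.2%. Ensheathing glia spots made up 25% and 68.0% in library 3 and 31.9% at the top 5% in library 4. Microglia spots made up 48.3% at the top 20% in library 3, and 10.6% and 39.4% in library 4. Of 61 counts of called genes, 51 stayed within 1.5 times, and the 10 that did not are printed above. Of list medians, 1043 of 1088 moved by less than 0.5 log2 units. Of values of single genes, 8135 of 9078 stayed within the counting interval of their reported ratio, and 943 moved outside it. Depth limits genes such as P2ry12, Ccnb1 and the T and NK cell genes, which rest on few UMIs.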
